A study of Mus musculus with 2 samples.

Results

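The miR-34 and miR-449 family is a set of 6 microRNA (miRNA) genes in the mouse, measured here in aged hippocampal tissue. Its members were taken by gene name from the annotation of the deposited counts: Mir34a, Mir34b, Mir34c, Mir449a, Mir449b and Mir449c, 6 of the 2202 miRNA genes listed. All 6 were found in both files. The tissue came from female B6CASTF1/J mice, first-generation hybrids of a B6 and a CAST parent, aged 18 to 20 months, and the label calls it a layer of hippocampus without naming the layer. RNA shorter than 30 nt was sequenced from 2 samples, labelled biological replicates 1 and 2. They form 1 group, with no treatment, genotype or younger age to compare. The sample records carry different animal numbers but name 1 donor record, so it is not certain that the animals were separate, and the spread between the libraries may be partly technical.

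A miRNA is cut from a hairpin-shaped precursor and guides silencing of messenger RNAs that pair with its seed, bases 2 to 8 of the mature strand. miRNAs that share a seed can act on overlapping targets, and the miR-34 and miR-449 genes are grouped by the seed of their 5p strands. Mir34a is known as a transcriptional target of p53 and restrains the cell cycle; in brain it has been studied in neuronal differentiation and ageing. The Mir34b/c pair and the Mir449 cluster are known from multiciliated cells, such as those of the airway, the oviduct and the ependyma lining the ventricles, where they are needed for the making of motile cilia.

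The mature sequences show what the members share and where they part. RefSeq (GRCm38.p6) listed a hairpin for 5 of the 6 genes and 9 mature strands for them; it gave no miR-34c-5p and no Mir449b entry. The 5p strands are shown because they define the family, with the seed in capitals, written 5′ to 3′.
miR-34a-5p: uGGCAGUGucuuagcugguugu
miR-34b-5p: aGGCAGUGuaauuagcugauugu
miR-449a-5p: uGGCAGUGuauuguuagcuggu
miR-449c-5p: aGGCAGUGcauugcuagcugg
These 4 strands all had the seed GGCAGUG, which is how the family is defined, and they were the only 4 of 1738 RefSeq mature miRNAs that had it. Searched as plain letters on the transcribed strand, GGCAGUG stood in the hairpins of all 5 listed members and in 17 of 1005 RefSeq hairpins (1.69%). Outside the seed the strands part: miR-34a-5p and miR-449a-5p differed by 6 edits, and miR-449a-5p and miR-449c-5p by 4.

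The 3p strands, cut from the other side of the hairpins, are shown because the counts below add both strands of a hairpin and the 3p seeds differ.
miR-34a-3p: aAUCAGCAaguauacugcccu
miR-34b-3p: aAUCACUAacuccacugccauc
miR-34c-3p: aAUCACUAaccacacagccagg
miR-449a-3p: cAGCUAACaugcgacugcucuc
miR-449c-3p: cAGUUGCUagcugcacuacccu
Only miR-34b-3p and miR-34c-3p shared a 3p seed, AUCACUA, and no other RefSeq mature miRNA had it. A gene's level here therefore mixes strands with different seeds, in proportions the files do not give.

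Whole hairpins are shown for Mir34a and Mir449a, of the 4 members with over 10 CPM those whose levels differed least between the libraries, with the listed mature strands in capitals.
Mir34a: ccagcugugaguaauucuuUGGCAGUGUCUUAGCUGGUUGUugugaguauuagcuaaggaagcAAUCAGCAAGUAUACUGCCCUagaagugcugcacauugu
Mir449a: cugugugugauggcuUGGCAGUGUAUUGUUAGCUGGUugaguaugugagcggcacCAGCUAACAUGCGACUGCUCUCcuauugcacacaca
The hairpins were distinct enough to be told apart by a perfect match of a full mature strand. The longest stretch that any member's hairpin shared with 1 of the other 2201 hairpins was 14 bases (Mir449a with Mir679), and no hairpin shared 16 or more with a member. The closest mature strand was miR-34b-5p, which lay 2 edits from a stretch of the Mir34c hairpin, while miR-34a-5p lay 4 edits from its nearest place, in Mir34b. Matches elsewhere in the genome were not searched.

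The members sit at 3 places in the mm10 genome. Mir34a (ENSMUSG00000065493.1) lies on the plus strand of chromosome 4, 150068454 to 150068555, where its last 17 bases overlap the exon of Gm37795, an unclassified transcript on the same strand. Mir34b (ENSMUSG00000065492.1, chromosome 9, 51103562 to 51103645) and Mir34c (ENSMUSG00000065587.1, chromosome 9, 51103034 to 51103110) lie on the minus strand, 451 bases apart. Both are in an intron of Btg4, a gene of the opposite strand. Mir449c (ENSMUSG00000076146.1, chromosome 13, 113035983 to 113036091), Mir449b (ENSMUSG00000078027.1, 113037419 to 113037498) and Mir449a (ENSMUSG00000065575.1, 113037534 to 113037624) lie on the plus strand in an intron of Cdc20b, a gene known from multiciliated cells. Mir449b and Mir449a are 35 bases apart.

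Mir34c and Mir34a made up most of the family, Mir449a and Mir34b were well below them, and Mir449c and Mir449b were at or near the limit of detection. Levels are given as CPM, the sense-strand counts of a gene scaled to a library total of 1000000. The total was 2255838 sense counts for replicate 1 and 4521208 for replicate 2. Where a gene had no count, up to 3 counts were taken as possible, which is 1.33 CPM in replicate 1 and 0.664 CPM in replicate 2. Intervals are exact 95% Poisson intervals; like these floors they cover counting error only, because reads copied by PCR are not separate molecules. The listed mature strands are all 21 to 23 bases long, so no correction for length was made. Of the 6 members, 4 reached 1 CPM in both libraries, beside 20.3% of all 2202 genes.

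Mir34c, the main product of the chromosome 9 pair, had 3602 counts in replicate 1 and 1654 in replicate 2. Its level was 1597 CPM (1545 to 1649.8) in replicate 1 and 366 CPM (348 to 384) in replicate 2, with a mean of 981 ± 870 CPM (SD, n = 2). The shallower library held the higher count, and the intervals were far apart. Mir34c ranked 79 of 2202 genes in replicate 1 and 133 in replicate 2.

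Mir34b, made from the same stretch of chromosome 9, stood at 43.9 CPM (35.7 to 53.4; 99 counts) in replicate 1 and 21.01 CPM (17.0 to 25.7; 95 counts) in replicate 2. Its mean was 32.4 ± 16.2 CPM (SD, n = 2), so it too was higher in replicate 1, with intervals that did not overlap. Within a library, Mir34c exceeded Mir34b by 36.4-fold (29.8 to 44.9) in replicate 1 and 17.4-fold (14.2 to 21.6) in replicate 2. The pair was thus unequal in both libraries, and its ratio was not the same in both.

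Mir34a, a p53-linked member, stood at 487 CPM (459 to 517, 1099 counts) in replicate 1 and 549 CPM (528 to 571, 2483 counts) in replicate 2. Its mean was 518 ± 43.8 CPM (SD, n = 2). Mir34a was the lower of the 2 leading members in replicate 1, where Mir34c was 3.28 times as high (3.06 to 3.51). It was the higher in replicate 2, at 1.501 times the level of Mir34c (1.41 to 1.60). The mean levels of Mir34c and Mir34a did not differ beyond the spread between the libraries.

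The Cdc20b cluster came almost wholly from Mir449a, at 55.4 CPM (46.1 to 66.0; 125 counts) in replicate 1 and 63.9 CPM (56.8 to 71.7; 289 counts) in replicate 2. Its mean was 59.7 ± 6.02 CPM (SD, n = 2), and the intervals overlapped. Mir449a stood above Mir34b in both libraries, clearly so in replicate 2, whereas in replicate 1 their intervals overlapped. Mir34a was 8.79 times as high as Mir449a in replicate 1 (7.30 to 10.7) and 8.59 times in replicate 2 (7.60 to 9.74), so these members kept nearly 1 ratio.

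Mir449c had 3 counts in replicate 1 (1.33 CPM) and 2 in replicate 2 (0.442 CPM), levels at or under the floor, with a mean of 0.886 ± 0.628 CPM (SD, n = 2). The ratio of Mir449a to Mir449c was 41.7 in replicate 1 (13.9 to 205) and 144.5 in replicate 2 (39.6 to 1199). Mir449b had no count in either library. Against a floor of 3 counts for Mir449b, Mir449a was 41.7-fold higher in replicate 1 and 96.3-fold higher in replicate 2. These values leave out the counting error of Mir449a, so they are not strict lower limits. The 3 hairpins of this cluster thus gave very unequal counts, although they share an intron.

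**Figure D1:**
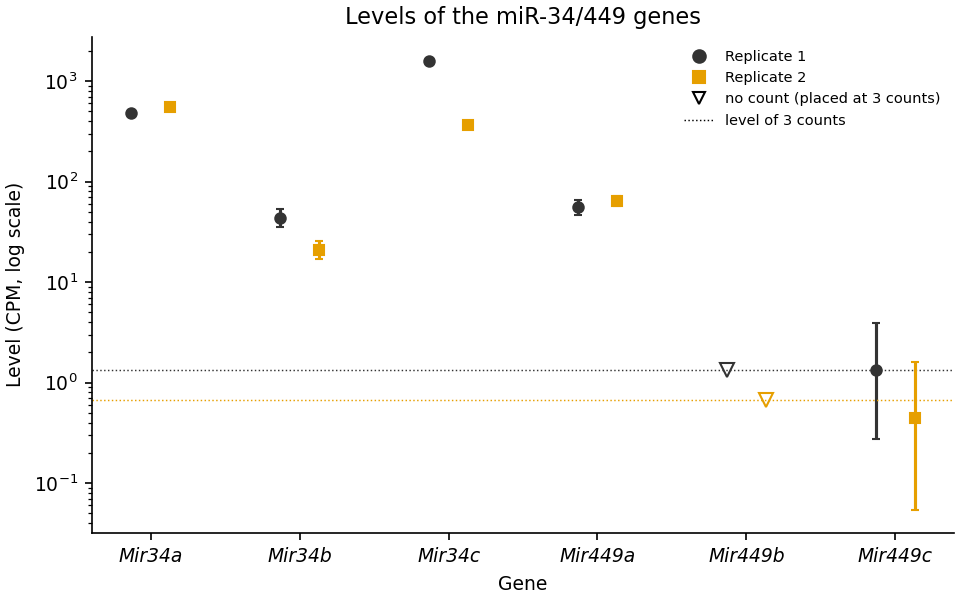
Level of each of the 6 genes in CPM (log scale) in replicate 1 (circles) and replicate 2 (squares), with exact 95% Poisson intervals; dotted lines mark the level of 3 counts in each library, and open triangles mark genes with no count. Mir34c stands at 1597 and 366 CPM, while Mir34a (487 and 549 CPM) and Mir449a (55.4 and 63.9 CPM) lie close together in both libraries.

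**Figure D2:**
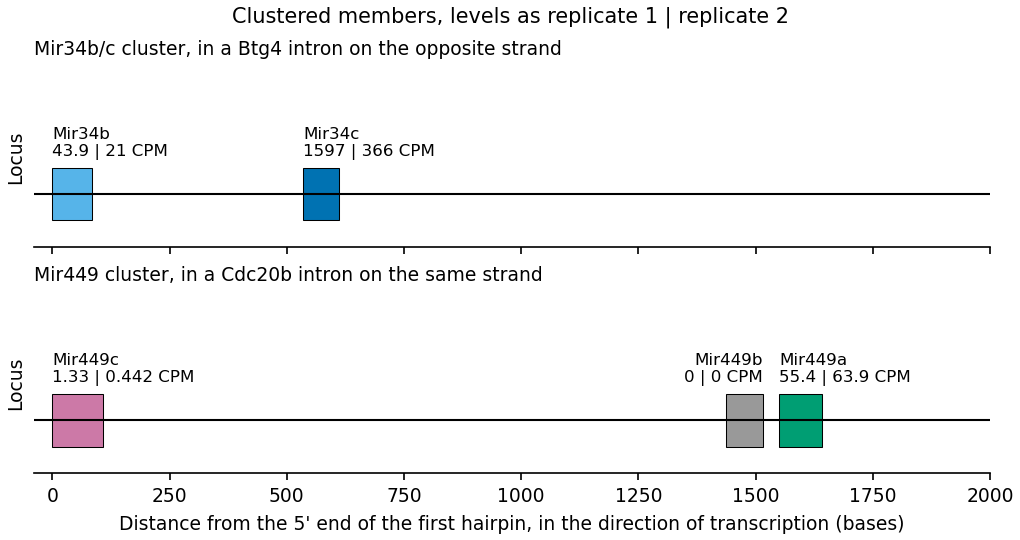
Hairpins of the Mir34b/c and Mir449 clusters drawn to scale along the direction of transcription (bases from the first hairpin), with the CPM in replicate 1 and replicate 2 above each. In the first cluster the downstream hairpin, Mir34c, is the higher one, and in the second it is the most downstream, Mir449a.

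Together the 6 genes held 4928 counts in replicate 1 and 4523 in replicate 2. This was 2185 CPM (2124 to 2246) in replicate 1 and 1000.4 CPM (971 to 1030.0) in replicate 2, or 0.218% and 0.100% of the sense counts. The mean was 1592 ± 837 CPM (SD, n = 2), and the family was 2.18-fold (2.10 to 2.27) higher in replicate 1. Without Mir34c the other 5 genes summed to 588 CPM (557 to 620.3) in replicate 1 and 635 CPM (612 to 658) in replicate 2. The difference in the family sum thus lay in Mir34c.

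The makeup of the family differed accordingly. Mir34c held 73.1% of the family's counts in replicate 1 (71.8 to 74.3, exact Clopper-Pearson 95% interval) and 36.6% in replicate 2 (35.2 to 38.0). Mir34a held 22.3% (21.1 to 23.5) in replicate 1 and 54.9% (53.4 to 56.4) in replicate 2. Mir449a held 2.54% (2.12 to 3.01) and 6.39% (5.69 to 7.14), whereas Mir34b held 2.01% (1.64 to 2.44) and 2.10% (1.70 to 2.56).

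**Figure D3:**
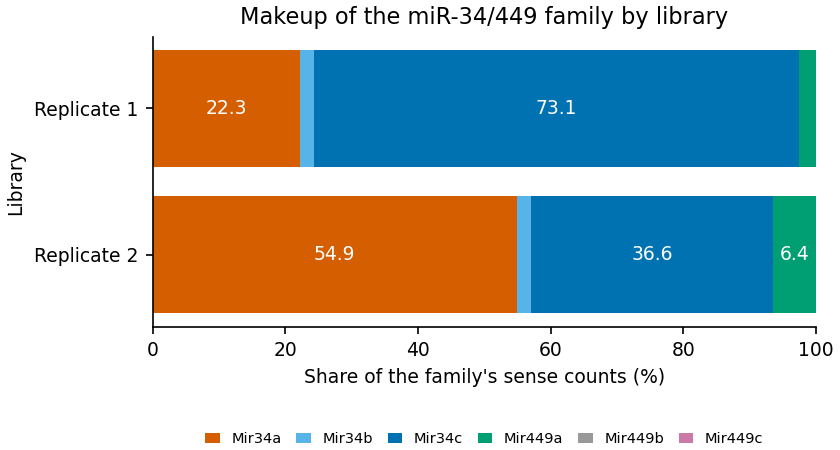
Share of the family's sense counts (percent) held by each gene, 1 bar per library. Mir34c takes 73.1% in replicate 1 and 36.6% in replicate 2, and Mir34a 22.3% and 54.9%; Mir449b (0) and Mir449c (3 and 2 counts) are too small to see.

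Set against all genes, Mir34b and Mir34c were called lower in replicate 2, and Mir34a and Mir449a were not called. The counts of each gene that averaged at least 1 CPM went into an exact binomial test (two-sided), with Benjamini-Hochberg adjustment over the 495 genes tested. A gene counted as called at an adjusted p under 0.05 and a difference of 2-fold or more. It sets the reads of 1 library against those of the other, not conditions, and there is no replicate check. It takes reads as independent molecules, so its p-values cover counting error only and do not measure the spread between animals. It called 2 of the 4 members tested, both lower in replicate 2. Over all tested genes it called 17.6% (87 of 495), with 13.7% called lower and 3.84% called higher. With only 4 members tested, no more can be read from this count. Mir449c and Mir449b were below the limit for testing.

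Mir34c was 4.36-fold (4.12 to 4.63) lower in replicate 2, a log2 ratio of -2.13, which ranked 27 of 495 from the lowest; its p was too small for the software to tell from 0. Mir34b was 2.09-fold (1.56 to 2.80) lower, a log2 ratio of -1.06 with an adjusted p of 1.14e-06 by the exact binomial test, just past the 2-fold limit. It was no longer called when the libraries were scaled by edgeR's TMM factors (log2 ratio -0.94), by DESeq2 size factors (-0.87) or by all reads (-0.76), or when the unstranded counts were used (-0.98). Mir34c was called under each of these 4 settings.

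Mir34a was 1.13 times as high in replicate 2 (1.05 to 1.21), a log2 ratio of 0.17 with an adjusted p of 0.00216 by the exact binomial test, far below the 2-fold limit. Mir449a was 1.15 times as high (0.932 to 1.43), a log2 ratio of 0.20 with an adjusted p of 0.291 by the same exact test. For comparison, the median log2 ratio over all tested genes was -0.19 and the median absolute value was 0.51. With the common spread between the libraries as the error, edgeR's exactTest called 0 of the 4 members, and 0.606% (3) of the 495 genes. That spread was estimated from the same 2 libraries, so the differences tested are part of their own error and few calls can arise; it does not show that the members were alike. By exactTest, Mir34c had an adjusted p of 0.472 (unadjusted 0.014). It was the only member with an unadjusted p under 0.05, beside 26 of all 495 genes.

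**Figure D4:**
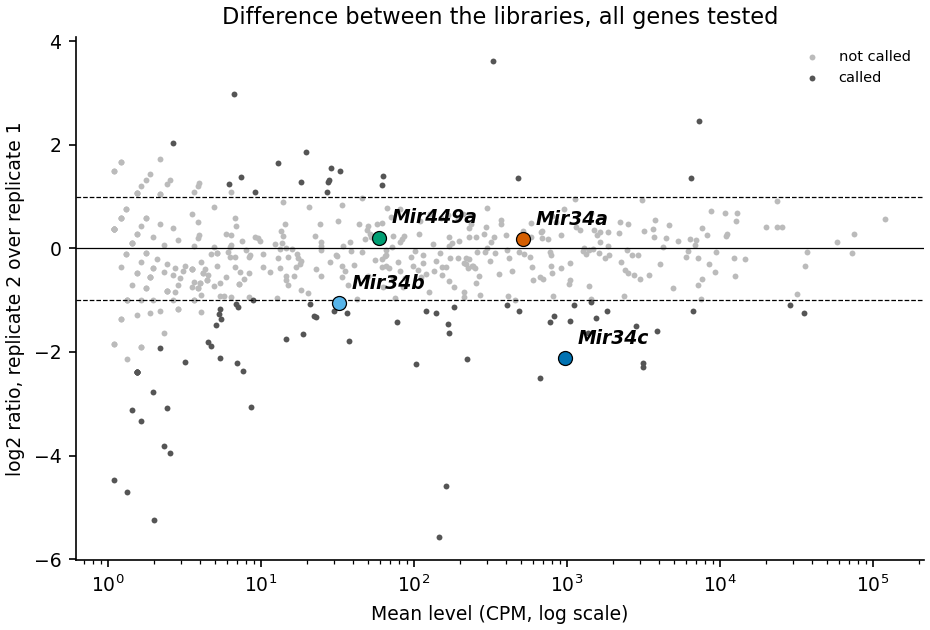
Log2 ratio of replicate 2 over replicate 1 against the mean level (CPM, log scale) for the 495 genes tested, with called genes dark and the 4 tested members as large points; dashed lines mark 2-fold. Mir34c lies well below the lower line at -2.13, Mir34b just past it at -1.06, and Mir34a and Mir449a near 0.

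The fates of reads differed between the libraries, and their part in the difference of Mir34c and Mir34b was not tested. In replicate 1, 29.0% of the reads were unmapped and 36.2% multimapping, and in replicate 2 these were 11.2% and 47.9%. Reads that fit several places are outside the gene counts.

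The label of the family as one of ciliated cells could be set only beside other miRNAs, since the files hold no messenger RNA of cilia. For this a list of 12 genes known from choroid plexus, ependyma and other epithelia, none of them members, was used (the epithelial list), and all 12 had counts. Its summed level was 1919 CPM in replicate 1 and 1220 CPM in replicate 2. Mir204, abundant in choroid plexus, led it with 1034 CPM in replicate 1 and 800 CPM in replicate 2. The next were Mir1298 (229 and 136 CPM), Mir429 (257 and 82.7 CPM) and Mir200c (172 and 36.3 CPM).

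Of these 12 genes, 5 were called lower in replicate 2 and 0 higher: Mir141, Mir200a, Mir200c, Mir429 and Mir448. All but Mir448 belong to the miR-200 family, so the 5 calls are not 5 separate observations. Among the listed genes outside that family, only Mir448 was called. Whether the called genes vary separately from each other was not tested. Mir200b (78.5 and 85.4 CPM, log2 ratio 0.12) and Mir764 (0.33) were higher in replicate 2 and not called. Mir204, Mir1298 and Mir1264 were lower by less than 2-fold, with log2 ratios of -0.37, -0.76 and -0.15. Mir211 and Mir1912 were not called either. Over all tested genes 13.7% were called lower and 3.84% higher. The exactTest of edgeR called 0 of the 12 listed genes. Of these, 2 had an unadjusted p under 0.05 by that test, beside 26 of all 495 genes tested. The list's median log2 ratio was -1.17, against -0.19 over all tested genes. That median pools the miR-200 family genes with the rest of the list. Mir34c and Mir34b were thus lower in the library where 10 of the 12 listed genes had the lower level. The same held for 304 of all 495 tested genes. Of the 10, Mir211 (4 and 4 counts) and Mir1912 (4 and 2 counts) rested on few counts, and Mir1264 differed little (33.2 and 30.1 CPM). Mir449a, known from the same ciliated cells as Mir34c and Mir34b, was not lower. The part of such cells in the levels of the members was not tested. In bulk tissue, fewer cells of a type and less RNA per cell cannot be told apart.

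The p53-linked list held 12 other miRNAs whose making or transcription has been tied to p53, and 11 were in the files. Of the 9 tested, 2 were called lower in replicate 2 (Mir200c and Mir141, which are on the epithelial list too) and 0 higher, against 13.7% lower and 3.84% higher over all tested genes, and the median log2 ratio was -0.37. Mir143, also a smooth muscle miRNA, led it (7538 CPM in replicate 1, 9071 CPM in replicate 2). It was followed by Mir107 (2748 and 2057 CPM), Mir15a (992 and 1319 CPM) and Mir145a (267 and 255 CPM). Mir34a, at 487 and 549 CPM, was thus neither the highest nor the lowest miRNA linked to p53 here.

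Lists for other cell types of the tissue had smaller median differences than the epithelial list. The neuron-enriched list (14 of 16 tested) had a median log2 ratio of -0.05, with 2 of the 14 called lower, against 13.7% of all tested genes. These were Mir129-1 (363 and 82.7 CPM, log2 ratio -2.13, as low as that of Mir34c) and Mir132. The list was led by Mir132 (38949 and 18329 CPM), Mir128-1 (10436 and 14980.1 CPM), Mir137 (10105 and 11969 CPM) and Mir138-1 (3602 and 2386 CPM). Its Mir124a genes had few counts: Mir124a-1 had 2 and 13, Mir124a-2 had 4 and 0, and Mir124a-3 had 1 and 4. Reads that fit several places are outside these counts, and their part in this ranking was not tested. The 3 oligodendrocyte genes had a median of -0.51, the 5 microglia and leukocyte genes 0.19 and the 3 vascular genes 0.27, with none called by the exact binomial test; Mir338, Mir150 and Mir126a led them.

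**Figure D5:**
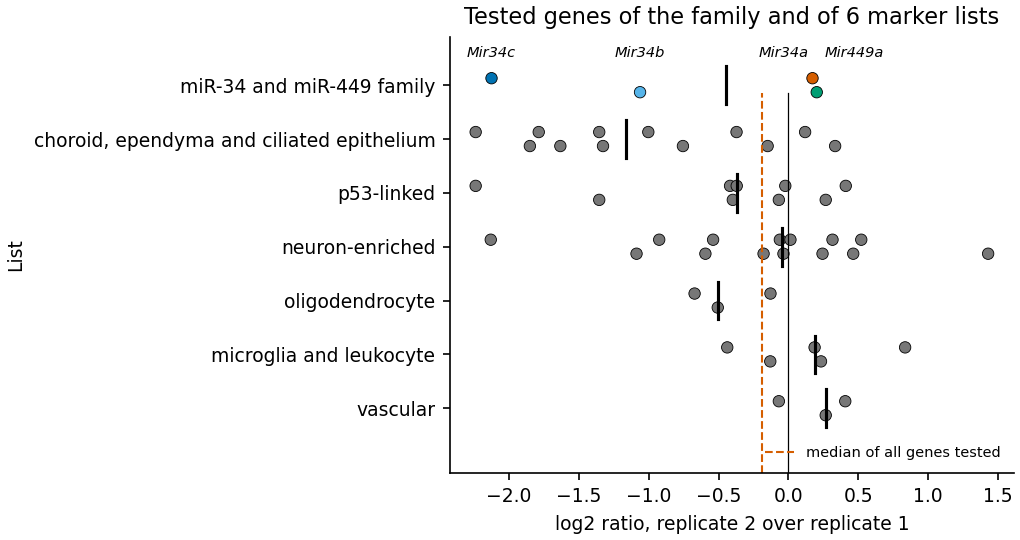
Log2 ratio of replicate 2 over replicate 1 for the tested genes of the family (coloured, top row) and of 6 marker lists (grey), with a black bar at each list's median and a dashed line at the median of all genes tested (-0.19). All 4 tested members lie within the range of the choroid, ependyma and ciliated epithelium list (-2.24 to 0.33, median -1.17). Mir34c (-2.13) and Mir34b (-1.06) lie below 0, and Mir34a and Mir449a above it. The ranges of the p53-linked list (-2.24 to 0.41) and the neuron-enriched list (-2.13 to 1.43) also hold all 4.

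The genes most like each member were found by distance over log2(CPM + 1) in the 2 libraries, which measures level and difference together; with 2 libraries it cannot tell a shared pattern from a shared level. Mir34a was nearest to Mir322 (distance 0.12 log2 units; 457 and 577 CPM), Mir153 (0.20) and Mir300 (0.20). Mir34c had no close neighbour: the nearest were Mir667 at 0.54, Mir31 at 0.58 and Mir346 at 0.67, each with a smaller difference between the libraries than Mir34c. For Mir34b the nearest were Mir3057 (0.12), Mir677 (0.21) and Mir135b (0.24). For Mir449a they were Mir148a (0.21), Mir25 (0.21) and Mir184 (0.25). None of these is on the epithelial list.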

How the data were processed

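Each library came with its own table of raw counts for miRNA genes, deposited by the authors without a header. Its 3 columns were read from their values as unstranded, sense and antisense counts, below 4 rows of totals. The READMEs beside the tables name mm10 as the assembly and GENCODE M21 as the annotation. Which aligner and counter were used is not given in the sources used here. GENCODE M21 named and placed all 2202 genes, and RefSeq (GRCm38.p6) gave the miRNA sequences.

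CPM used the sense column's sum without those 4 rows. Log2 ratios used a pseudocount of 0.5 counts. The exact binomial test ran on the whole table (scipy 1.17.1, Python 3.11.15) and was checked on simulated data. The simulated counts varied by counting error only, as the test assumes, so the check does not cover the spread between libraries. edgeR 4.0.16 and DESeq2 1.42.0 (R 4.3.3) gave other scalings and exactTest. Members, lists, tests and the rule for named genes (all members, the 3 nearest genes per member at 10 CPM or more, up to 4 leading genes per list) were chosen with earlier results of these data known. Genes named as called were named after their values were seen. Mir605 had no match by name.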

Additional observations from a re-analysis of the deposited data

Results flagged for a closer look

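Mir34b had 6 counts on the antisense strand in replicate 2 and 2 in replicate 1, beside 95 and 99 on the sense strand. The 6 counts lie above the 3 that a count of 0 allows, in a column that no comparison of levels used. They were 5.94% of its stranded counts in replicate 2 and 1.98% in replicate 1. Over all genes, replicate 2 had 418947 antisense counts beside 4521208 sense counts, and replicate 1 had 180101 beside 2255838. These totals over all genes include entries with antisense counts only. Gm25927 had 45574 in replicate 1 and 121821 in replicate 2, and Gm24083 had 35479 and 61733. Both had no sense and no unstranded count. The totals are therefore no background for Mir34b, and whether its antisense part is unusual was not tested. The other 5 members had no antisense count in either library. The antisense strand here is the strand of Btg4, whose intron holds Mir34b. Counted without strand, Mir34b had 101 counts in each library.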

How the results depend on the processing

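Mir34c kept its direction and its call under every scaling, column and pseudocount tried, with log2 ratios from -2.13 to -1.82. Of the members, 2 were called in the report; 1 was called with TMM factors, 1 with DESeq2 size factors, 1 with unstranded counts and 0 with edgeR's exactTest. The log2 ratio of Mir34b, -1.06 in the report, was -0.94 with TMM factors, -0.87 with DESeq2 size factors, -0.76 with all reads of the library as the total and -0.98 with unstranded counts, each short of 2-fold. The log2 ratio of the family sum, -1.13, became -1.01, -0.94 and -0.82 with TMM, DESeq2 and all-read scaling, which raise every log2 ratio by 0.12, 0.19 and 0.30. In the same order, Mir34a had log2 ratios of 0.29, 0.36 and 0.47, and Mir449a 0.32, 0.39 and 0.51. The adjusted p of Mir449a by the exact binomial test was then 0.0662, 0.0222 and 0.00188. Neither gene reached 2-fold. Over all genes 87 were called; a limit of 10 CPM left 53 of 310 genes tested, and exactTest left 3, with 26 at an unadjusted p under 0.05. The calls were 19 higher and 68 lower, against 26 and 51 with TMM factors, 27 and 48 with DESeq2 size factors and 34 and 39 with all reads.

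Scaled to 1000000 of all reads, mean levels were 176 for Mir34a, 10.5 for Mir34b, 20.2 for Mir449a and 515 for the family sum. Mir34a stood at 567 CPM on the unstranded counts. Leaving out 1 library gives the level of the other, as printed. No paired analysis was possible because there is 1 group. With 2 libraries, the SDs are rough, and depth limits Mir449b and Mir449c.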
